A study of Mus musculus with 10 samples.

Results

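The neurotrophin receptors and their partners examined here are 5 genes of the 22255 in the gene table, namely Ntrk2, Ntrk3, Ngfr, Sort1 and Ntf3, together with all 37 of their transcripts among the 102392 in the transcript table. They are listed by gene symbol and were matched through the Ensembl identifier without its version. RNA came from hippocampal synaptoneurosomes, a tissue fraction prepared to enrich synaptic material, of C57Bl/6J mice labelled wild type. There were 5 libraries from mice given vehicle and 5 from mice given AM6545 sub-chronically. AM6545 blocks the cannabinoid receptor CB1 and reaches the brain only in small amounts. The labels give no dose, duration, age or sex, and do not tell single animals from pools, so n is the number of libraries and p-values measure only the spread between them, which may be technical.

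Neurotrophins are secreted growth factors that bind Trk receptor tyrosine kinases. TrkB, the product of Ntrk2, is the receptor for BDNF and NT-4, and TrkC, the product of Ntrk3, is the receptor for NT-3, which Ntf3 encodes. Ligand binding pairs full-length receptors, whose kinase domains then phosphorylate each other and recruit adaptors of the Ras-MAPK, PI3K-Akt and phospholipase C gamma pathways. Both genes also make truncated receptors, which keep the ligand-binding part and the membrane segment but lack the kinase. Truncated TrkB binds ligand without kinase signalling and is known as the main TrkB form of astrocytes. Ngfr encodes p75NTR, which binds all neurotrophins and, with the sorting receptor sortilin (Sort1), their uncleaved precursors.

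The receptor transcripts were split by their annotated coding sequences in GENCODE M21 on GRCm38 (the build also called mm10). A transcript was called kinase-containing if its protein held both the catalytic loop motif HRDL and the motif DFG. It was called truncated if its coding sequence ended at a stop codon and held neither motif. Ntrk2 had 2 kinase-containing, 5 truncated and 3 other transcripts, and Ntrk3 had 3 kinase-containing, 1 truncated and 16 other transcripts. The others had no coding sequence, an incomplete one, a retained intron or a type marked for nonsense-mediated decay. Below are the 30 bases at which the kinase-containing and the truncated reading frame of Ntrk3 part. The isoform classes also differ in the sequence beyond this point. Bases are counted from 1 at the first base of the start codon, and capitals mark the 15 bases that follow the point of parting. The stretch begins at base 1571.
Ntrk3-201, kinase-containing: acaagccagacacatATGTTCAGCACATCA
Ntrk3-202, truncated: acaagccagacacatGGGTCTTTTCAAACA

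The stretch that every truncated transcript lacks is shown by the catalytic loop, with the codons of HRDL in capitals. It starts at base 2011 of the Ntrk2-207 coding sequence and at base 2023 of that of Ntrk3-201.
Ntrk2-207: tttgtgCACCGTGACCTGgccacccggaac
Ntrk3-201: tttgtaCACCGGGACCTGgccacgaggaac

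The kinase-containing Ntrk2-207 and Ntrk2-201 encode the same 821 residues, with the catalytic loop at residue 673 and the DFG motif at residue 693. The truncated Ntrk2-204 and Ntrk2-202 encode 476 residues, of which the first 465 are shared with the kinase form and the last 11 are their own, the tail known as that of TrkB-T1. Ntrk2-205 shares the same 465 residues and ends in 27 others. Ntrk3-201 encodes 825 residues, with the catalytic loop at residue 677, and the truncated Ntrk3-202 shares 528 of them before 84 residues of its own. Ntrk3-205 and Ntrk3-206 carry the kinase with an insert of 14 residues (712 to 725) or 39 residues (712 to 750), downstream of the DFG motif at residue 697. The most hydrophobic window of 19 residues was sought outside the N-terminal stretch of each protein. It lies at residues 435 to 453 in TrkB and 434 to 452 in TrkC, and the truncated forms all hold it. Ntrk2 (ENSMUSG00000055254.16) lies on chromosome 13 from 58806569 to 59133970 on the plus strand, and the truncated transcripts Ntrk2-204 and Ntrk2-202 end at 58933120 and 58937027, upstream of the ends of Ntrk2-207 at 59129965 and Ntrk2-201 at 59133970. Ntrk3 (ENSMUSG00000059146.13) lies on chromosome 7 from 78175959 to 78738012 on the minus strand. The authors' annotation release is not given in the sources used here, so these models may differ from those used for counting.

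Library totals were 18106112 to 25899794 estimated counts, so that 3 counts equalled 0.116 to 0.166 counts scaled to the library total (CPM) in a library. This floor covers counting error only, because the libraries were amplified and carry no label of single molecules. Neuronal and glial markers were both present in the fraction: Slc17a7, of excitatory terminals, lay at 632 to 977 CPM, Gad1, of inhibitory neurons, at 276 to 431, the astrocyte gene Gfap at 187 to 365 and the myelin gene Mbp at 6519 to 15945. Camk2a of excitatory neurons was at 246 to 390 CPM, Aqp4 of astrocytes at 89.0 to 129, Cx3cr1 of microglia at 52.4 to 86.9 and Cldn5 of endothelium at 1.99 to 6.31. AM6545 replicate 3 had the highest mean of the 16 astrocyte markers (7.98 on the log2 CPM scale, others 7.56 to 7.82) and of the 10 oligodendrocyte markers (8.62). Vehicle replicate 4 had the lowest choroid plexus marker mean (1.35 on the log2 CPM scale, highest library 5.88), and Ttr, a choroid plexus gene, lay between 41.5 and 4657 CPM over the libraries.

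Ntrk2 was by far the most abundant of the members, and its level did not differ between the groups beyond the spread of the libraries. The Ntrk2 gene level was 413, 446, 484, 426 and 426 CPM in vehicle replicates 1 to 5 and 448, 386, 539, 435 and 366 CPM in AM6545 replicates 1 to 5. The highest and the lowest library both belonged to the AM6545 group, and the groups overlapped. Mean levels were 439 ± 27.6 CPM with vehicle and 435 ± 67.5 with AM6545 (SD, n = 5 each). The log2 fold change, AM6545 over vehicle, was -0.01 (SE 0.110, 95% interval -0.25 to 0.22, adjusted p = 0.9998, edgeR's quasi-likelihood test with Benjamini-Hochberg adjustment over all 14358 tested genes). In a bulk fraction such as this, fewer contributing cells and less RNA per cell cannot be told apart.

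Within Ntrk2, the kinase-containing transcripts together had 187, 169, 214, 219 and 195 CPM in the vehicle libraries and 215, 170, 199, 192 and 148 CPM in the AM6545 libraries. The lowest kinase-containing sum was that of AM6545 replicate 5, and the other 4 AM6545 libraries lay within the vehicle range. The truncated transcripts together had 226, 276, 270, 207 and 232 CPM with vehicle and 233, 216, 340, 243 and 218 CPM with AM6545. AM6545 replicate 3 stood alone at the top, and the remaining AM6545 libraries lay inside the vehicle range. Kinase-containing Ntrk2 had a log2 fold change of -0.09 (SE 0.112, interval -0.33 to 0.15) and truncated Ntrk2 one of 0.05 (SE 0.130, interval -0.23 to 0.32), each with an adjusted p of 0.9999 in edgeR's quasi-likelihood test. Without AM6545 replicate 3, the log2 fold change of truncated Ntrk2 was -0.09.

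**Figure D1:**
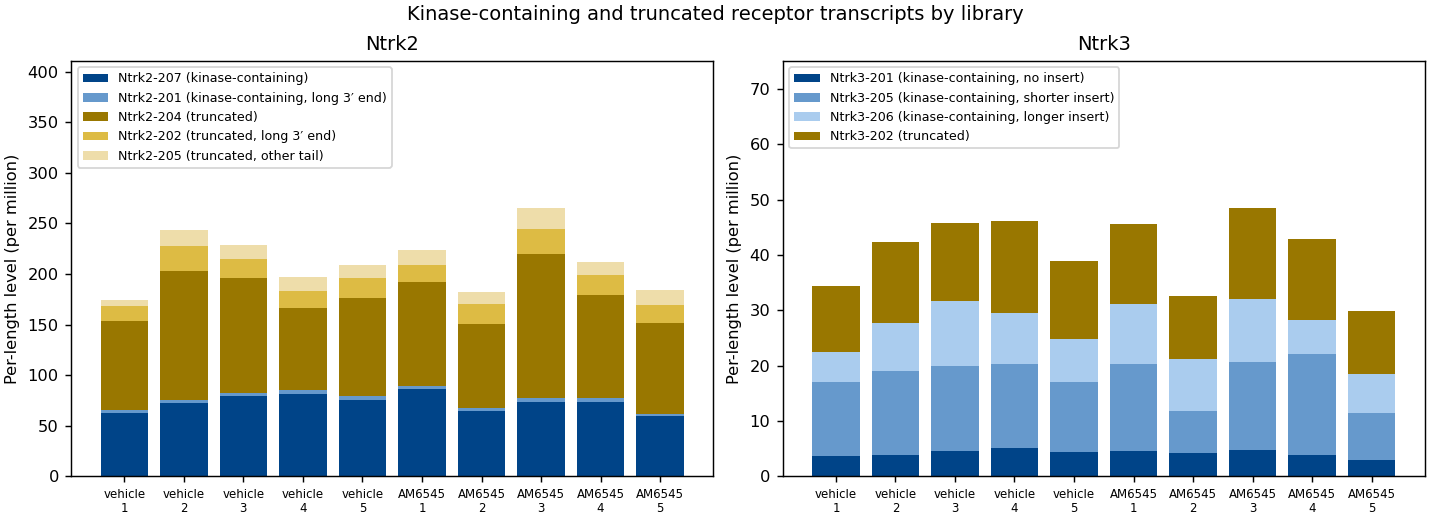
Stacked per-length levels (estimated count divided by transcript length, scaled to 1000000 per library) of the kinase-containing and truncated transcripts of Ntrk2 and Ntrk3 in each of the 10 libraries. Truncated forms make up 56.8 to 70.8% of the Ntrk2 levels and 30.99 to 38.4% of the Ntrk3 levels of these classes.

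Truncated receptors made up most of the Ntrk2 message in every library once counts were divided by transcript length. The truncated share of kinase-containing plus truncated Ntrk2 was 62.6, 69.3, 64.1, 56.8 and 62.1% in vehicle replicates 1 to 5 and 60.3, 63.3, 70.8, 63.6 and 66.9% in AM6545 replicates 1 to 5. Both groups spanned about the same range, with vehicle replicate 4 lowest and AM6545 replicate 3 highest. Means were 63.0 ± 4.48% and 65.0 ± 4.01% (SD, n = 5 each), a difference of 1.97 percentage points (two-sided exact permutation test, p = 0.484, adjusted over the 2 genes 0.968). The smallest p this design allows is 0.00794. Counted by reads and not per length, the share was 48.6 to 63.1% and exceeded 50% in 9 of 10 libraries, vehicle replicate 4 being the exception.

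The TrkB-T1 transcript with the shorter 3′ end, Ntrk2-204, held 48.2 ± 3.61% of the Ntrk2 per-length level (SD, n = 10 libraries). Ntrk2-207, the kinase form with the shorter 3′ end, held 34.5 ± 3.999%, followed by Ntrk2-202 at 9.10 ± 0.964%, Ntrk2-205 at 6.46 ± 1.28% and Ntrk2-201 at 1.49 ± 0.232%. Ntrk2-202, with a 3′ UTR of 4967 bases against 1060 in Ntrk2-204, held 15.4 ± 1.32% of these T1 transcripts with vehicle and 16.3 ± 1.82% with AM6545 (per length, SD, n = 5 each). Ntrk2-201, with a 3′ UTR of 5617 bases against 1612 in Ntrk2-207, held 4.18 ± 0.399% and 4.14 ± 0.731% of the kinase-containing level. Counted by reads and not per length, the same shares were larger, at 29.0 ± 2.09% and 30.5 ± 2.801% for Ntrk2-202 and 7.49 ± 0.691% and 7.43 ± 1.27% for Ntrk2-201. On both scales the longer 3′ end was the minor form and the group differences were smaller than the spread between libraries. The individual estimates rest on little private sequence, since 0% of the 31-base words of Ntrk2-204 and 0.449% of those of Ntrk2-207 occur in no other Ntrk2 transcript. The class sums rest on more, since 77.1% of the words of the kinase-containing transcripts and 76.6% of those of the truncated ones occur in no transcript of the opposite class. These words are pooled over each class and include those of the long minor forms. Of the words of Ntrk2-201 and Ntrk2-202, 48.0 and 59.0% occur in no other Ntrk2 transcript. The percentage for Ntrk2-204 and Ntrk2-207 alone against the opposite class was not computed.

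No single Ntrk2 transcript passed the test. Ntrk2-205, the truncated form with the 27-residue tail, had 7.84, 17.3, 18.03, 16.9 and 14.3 CPM with vehicle and 17.0, 14.5, 24.7, 15.1 and 17.0 CPM with AM6545. Its lowest library was vehicle replicate 1 and its highest AM6545 replicate 3, and its log2 fold change of 0.25 (SE 0.233) had an unadjusted p of 0.310 in edgeR's quasi-likelihood test. Ntrk2-204 had 158, 186, 185, 132 and 148 CPM with vehicle and 158, 132, 228, 158 and 137 CPM with AM6545. Below AM6545 replicate 3, the AM6545 libraries lay at 132 to 158 CPM, in the lower part of the vehicle range. Vehicle replicates 2 and 3 were above them. The log2 fold changes of the others were 0.01 for Ntrk2-204, 0.09 for Ntrk2-202, -0.09 for Ntrk2-207 and -0.10 for Ntrk2-201. Without AM6545 replicate 3, that of Ntrk2-204 was -0.15.

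Ntrk3 showed the reverse balance, with kinase-containing forms in the majority, and no difference between the groups beyond the spread. The Ntrk3 gene level was 101, 92.0, 118, 123 and 99.2 CPM in the vehicle libraries and 110, 91.5, 122, 103 and 73.2 CPM in the AM6545 libraries. AM6545 replicate 5 lay lowest, and 3 of the other AM6545 libraries fell within the vehicle range. The log2 fold change was -0.09 (SE 0.129, 95% interval -0.37 to 0.18, adjusted p = 0.9998, edgeR's quasi-likelihood test). Without AM6545 replicate 5 it was 0.00.

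Kinase-containing Ntrk3 transcripts together had 72.7, 64.7, 87.4, 87.6 and 70.4 CPM with vehicle and 80.8, 67.6, 87.3, 72.3 and 50.2 CPM with AM6545. The truncated Ntrk3-202 had 28.1, 27.1, 30.1, 35.2 and 28.2 CPM with vehicle and 28.8, 23.7, 34.2, 29.5 and 22.8 CPM with AM6545. Both classes overlapped between the groups and both had a log2 fold change of -0.10 (SE 0.136 for the kinase-containing and 0.120 for the truncated class, adjusted p = 0.9999 in edgeR's quasi-likelihood test). The truncated share per length was 34.9, 34.5, 30.99, 36.2 and 36.3% in vehicle replicates 1 to 5 and 31.8, 35.2, 34.0, 34.0 and 38.4% in AM6545 replicates 1 to 5. The group means were 34.6 ± 2.17% and 34.7 ± 2.42% (SD, n = 5 each), a difference with p = 0.976 in the two-sided exact permutation test. In 10 of 10 libraries the truncated share was larger in Ntrk2 than in Ntrk3.

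The kinase-containing Ntrk3 pool was mixed. Ntrk3-201, without an insert, held 41.2 ± 2.998% of the Ntrk3 counts but 10.1 ± 1.26% of the per-length level (SD, n = 10), because its model has 19703 bases, 16600 of them 3′ UTR. Ntrk3-205, with the 14-residue insert, held 32.6 ± 5.05% of the per-length level and Ntrk3-206, with the 39-residue insert, 21.04 ± 4.48%, while their models have 152 and 179 bases of 3′ UTR. Forms with an insert made up 84.2 ± 1.72% of the kinase-containing level per length with vehicle and 84.1 ± 2.58% with AM6545, against 42.5 ± 3.26% and 42.5 ± 4.32% of counts (SD, n = 5 each). The share of insert forms therefore depended on the length given to Ntrk3-201, while the groups differed by less than the spread of the libraries on either scale. The same holds for the Ntrk3 truncated share, which was 25.6 to 31.2% of counts.

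The insert forms varied more between libraries than the gene, with coefficients of variation over the 10 libraries of 25.3% for Ntrk3-205 and 25.2% for Ntrk3-206 against 15.1% for Ntrk3. The split between them rests on little private sequence, since 1.13% of the 31-base words of Ntrk3-205 and 3.79% of those of Ntrk3-206 occur in no other Ntrk3 transcript. Ntrk3-205 had 20.9, 19.5, 21.9, 21.8 and 17.0 CPM with vehicle and 21.4, 10.4, 22.4, 25.0 and 11.2 CPM with AM6545, the lowest being AM6545 replicates 2 and 5. Ntrk3-206 had 8.76, 11.5, 17.5, 13.5 and 10.7 CPM with vehicle and 15.1, 13.6, 16.6, 8.74 and 9.73 CPM with AM6545. Neither passed the test (log2 fold changes -0.16, SE 0.247, and 0.04, SE 0.230). Ntrk3-201 had a log2 fold change of -0.11 (SE 0.152).

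**Figure D2:**
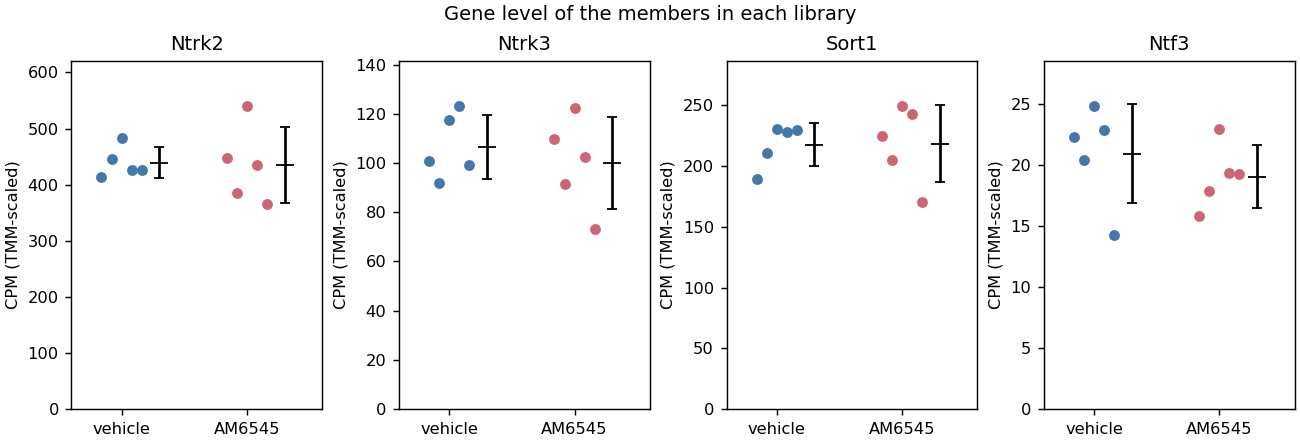
Gene level (CPM, scaled by TMM, the library scaling of edgeR) of Ntrk2, Ntrk3, Sort1 and Ntf3 in each library, with points for single libraries and the mean with its SD beside them for 5 vehicle and 5 AM6545 libraries. The groups overlap for all 4 genes, for example at 413 to 484 CPM with vehicle and 366 to 539 CPM with AM6545 for Ntrk2.

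The p75 receptor gene Ngfr (ENSMUSG00000000120.7, chromosome 11, 95568818 to 95587735, minus strand) was at the limit of detection. It had 2, 1, 0, 3 and 0 counts in the vehicle libraries and 2, 1, 1, 0 and 0 counts in the AM6545 libraries, 10 in all, with no count in 4 libraries. No library exceeded 3 counts, so no fold change is given and a difference was not detectable at this depth.

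Sort1 encodes sortilin, which carries proneurotrophins and BDNF through the secretory pathway and forms a receptor complex with p75NTR. The gene (ENSMUSG00000068747.15) lies on chromosome 3 from 108284082 to 108361511 on the plus strand, where an exon of Gm12523 overlaps it on the opposite strand. Because no strand setting is given in the sources used here, reads of this pair of genes may not have been told apart. Sort1 had 189, 211, 231, 228 and 230 CPM with vehicle and 225, 205, 249, 243 and 170 CPM with AM6545. Highest and lowest both came from the AM6545 group, the means were 218 ± 17.8 and 219 ± 32.0 CPM (SD, n = 5 each), and the log2 fold change was 0.00 (SE 0.111, 95% interval -0.23 to 0.24, adjusted p = 0.9998, edgeR's quasi-likelihood test).

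Beneath this even gene level, the split of Sort1 among its 3 transcripts varied from library to library. Sort1-202, annotated as a transcript with a retained intron, had 92.0, 15.2, 63.7, 70.4 and 55.5 CPM with vehicle and 52.7, 50.9, 63.7, 48.6 and 29.4 CPM with AM6545. Vehicle replicates 1 and 2 were the extremes, at 48.7 and 7.08% of the Sort1 counts, while the AM6545 libraries all lay between 17.3 and 25.4%. Sort1-203, whose protein has 858 residues against 825 for Sort1-201, had 4.53, 23.5, 10.98, 11.7 and 6.78 CPM with vehicle and 9.48, 13.4, 11.4, 14.5 and 25.1 CPM with AM6545. Its coefficient of variation over the 10 libraries was 50.1%, and that of Sort1-202 was 39.1%, against 11.2% for the gene. The main coding form Sort1-201 held 68.9 ± 8.52% of counts (SD, n = 10).

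**Figure D3:**
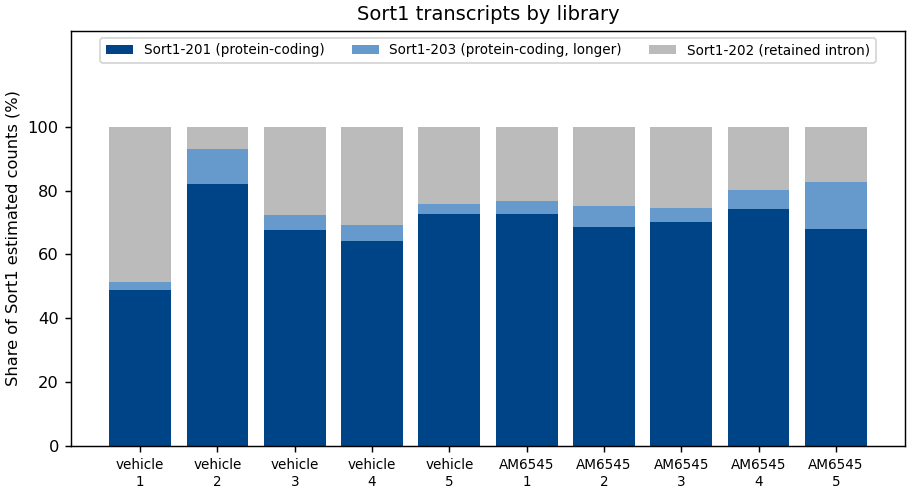
Share of the Sort1 estimated counts (%) held by Sort1-201, Sort1-202 and Sort1-203, stacked for each library. The retained-intron form Sort1-202 ranges from 7.08% in vehicle replicate 2 to 48.7% in vehicle replicate 1, and lies between 17.3 and 25.4% in the AM6545 libraries.

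No Sort1 transcript passed the test. Log2 fold changes were -0.28 for Sort1-202 (SE 0.391, 95% interval -1.15 to 0.59), 0.36 for Sort1-203 (SE 0.428, interval -0.59 to 1.32) and 0.07 for Sort1-201 (SE 0.181). Single libraries moved these values: without vehicle replicate 2, Sort1-202 was at -0.53 (unadjusted p = 0.0380, adjusted p = 0.9997, edgeR's quasi-likelihood test) and Sort1-203 at 0.80, while without vehicle replicate 1 Sort1-202 was at -0.06, and without AM6545 replicate 5 Sort1-203 was at 0.09. Sort1-201 and Sort1-203 share nearly all of their sequence, with 1.36 and 0.882% of their 31-base words found in no other Sort1 transcript, against 13.4% for Sort1-202.

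The ligand gene Ntf3 (ENSMUSG00000049107.14, chromosome 6, 126101412 to 126166910, minus strand) had 22.3, 20.4, 24.8, 22.9 and 14.3 CPM with vehicle and 15.8, 17.9, 22.9, 19.4 and 19.2 CPM with AM6545. Every AM6545 library lay within the vehicle range, of which vehicle replicate 5 was the low end. The log2 fold change was -0.14 (SE 0.141, 95% interval -0.44 to 0.16, unadjusted p = 0.342, adjusted p = 0.9998, edgeR's quasi-likelihood test), and -0.25 without vehicle replicate 5 (unadjusted p = 0.0593). The transcript Ntf3-203 held 98.3% of its counts. Bdnf, the ligand of TrkB, had 120, 95.3, 117, 126 and 90.7 CPM with vehicle and 96.1, 101, 106, 101 and 93.1 CPM with AM6545. Its vehicle libraries spanned the whole AM6545 range, with a log2 fold change of -0.14 (SE 0.105). Exons of Gm45346 overlap Bdnf on the opposite strand.

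Members made 0 calls at an adjusted p of 0.05 in edgeR's quasi-likelihood test and in DESeq2's Wald test, among 4 genes, 13 transcripts and 4 isoform classes. For edgeR's quasi-likelihood test, the share of all tested rows called was 0% for genes and 0.00314% for transcripts (1 transcript), and for DESeq2 it was 0% and 0.0346% (11 transcripts). At an unadjusted p under 0.05 there were also 0 member calls, in edgeR and in DESeq2, where edgeR called 1.88% of all genes (1.14% higher and 0.738% lower with AM6545) and 1.97% of all transcripts (1.1% higher and 0.873% lower), and DESeq2 called 1.92% and 2.75%. The table with Ntrk2 and Ntrk3 split by class had the same shares as the genes, save that 0.292% of its rows did not overlap between groups. Groups that did not overlap were found for 0.293% of all genes, 0.575% of all transcripts and 0 of these members. With 4 genes and 13 transcripts, counts of 0 are near these background shares. The 95% intervals of the 4 genes bound the change at between -0.44 and 0.24 on the log2 scale. The 24 member transcripts below the low-count filter, Ngfr-201 among them, had at most 21.4 counts in a library, and 5 of them had none in any. One of these, Ntrk3-214, chosen after its values were seen, had 0 counts in the 5 vehicle libraries and about 1 count in each AM6545 library, which is under the floor of 3 counts.

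**Figure D4:**
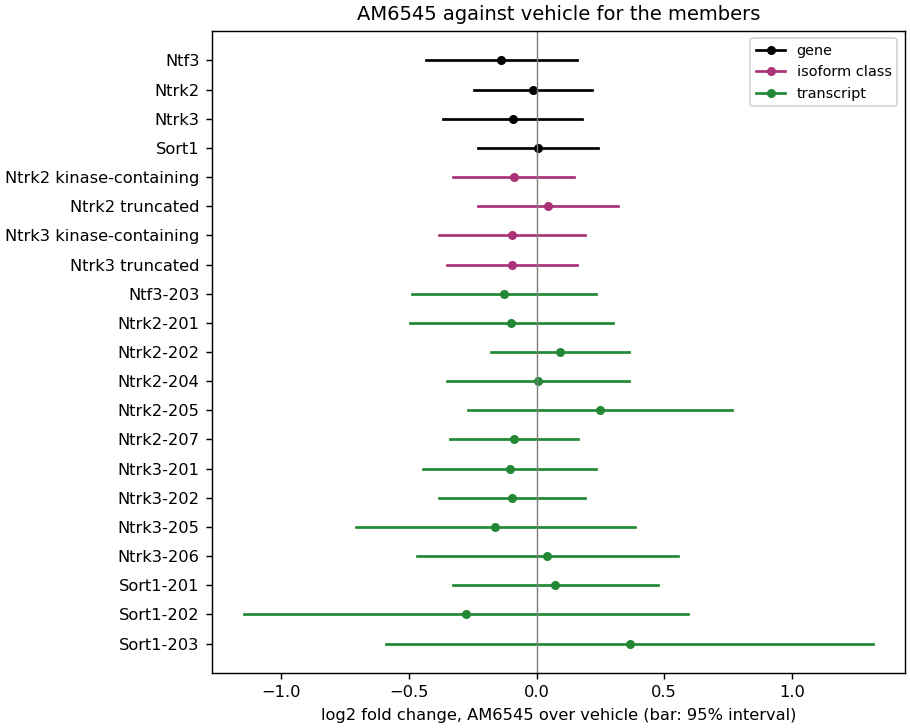
Log2 fold change, AM6545 over vehicle, for the tested member genes, isoform classes and transcripts, with bars for the 95% interval. All intervals span 0, and the widest belong to Sort1-203 (-0.59 to 1.32) and Sort1-202 (-1.15 to 0.59).

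Per transcript length, the levels formed a steep order over the 10 libraries. Ntrk2 stood at 212 ± 28.9 (per-length level, SD, n = 10), Sort1 at 67.0 ± 7.93, Bdnf at 50.6 ± 4.14, Ntrk3 at 41.8 ± 6.66 and Ntf3 at 28.7 ± 4.37. Each of these was above the next in 10 of 10 libraries. The ranges of the neighbours Sort1 and Bdnf, Bdnf and Ntrk3, and Ntrk3 and Ntf3 overlapped, while Ntrk2 stayed clear of Sort1. Ntf5, the gene of NT-4, was at 0.420 ± 0.249 and Ngfr at 0.0250 ± 0.0243. In the order of all tested genes by per-length level, Ntrk2 was at percentile 94.4, Sort1 at 80.7, Ntrk3 at 71.8 and Ntf3 at 64.0.

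The truncated and kinase-containing sums were set against the mean log2 CPM of 4 marker lists across the 10 libraries. The lists were those of astrocytes, excitatory neurons, oligodendrocytes and choroid plexus, which made 16 relations, and none passed an adjusted p of 0.05. Truncated Ntrk2 against the 16 astrocyte markers gave Pearson's r = 0.773 (permutation test, p = 0.00865, adjusted p = 0.114) and Spearman's rho = 0.721 (permutation p = 0.0227, adjusted p = 0.277). Without AM6545 replicates 3 and 5, the libraries farthest from the median of the marker mean, r was 0.479. With AM6545 replicate 3 alone left out it was 0.534, and with AM6545 replicate 5 alone left out 0.780, so the size of r rested on AM6545 replicate 3. Within groups r was 0.568 over the vehicle and 0.850 over the AM6545 libraries. Kinase-containing Ntrk2 against the same markers gave r = 0.583 (permutation p = 0.0787, adjusted p = 0.252) and rho = 0.588 (permutation p = 0.0808, adjusted p = 0.283), and r = 0.404 without AM6545 replicates 3 and 5. Here r was 0.668 with AM6545 replicate 3 alone left out and 0.335 with AM6545 replicate 5 alone left out. It was 0.197 over the vehicle and 0.861 over the AM6545 libraries. Truncated Ntrk2 against the oligodendrocyte markers gave r = 0.748 (permutation p = 0.0143, adjusted p = 0.114) and rho = 0.576 (permutation p = 0.0885, adjusted p = 0.283), and r = 0.512 without AM6545 replicates 1 and 3. With AM6545 replicate 3 alone left out r was 0.411, and with AM6545 replicate 1 alone left out 0.814. Kinase-containing Ntrk2 against the oligodendrocyte markers gave r = 0.0807. The difference between the 2 classes in these relations was not tested.

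For Ntrk3 both classes gave about the same r against the astrocyte markers, 0.687 for the truncated class (permutation p = 0.0275, adjusted p = 0.120; rho = 0.685, permutation p = 0.0346, adjusted p = 0.277) and 0.688 for the kinase-containing class (permutation p = 0.0300, adjusted p = 0.120; rho = 0.527, permutation p = 0.123, adjusted p = 0.329). Without AM6545 replicates 3 and 5 they were 0.302 and 0.296. With AM6545 replicate 3 alone left out they were 0.570 and 0.647, and with AM6545 replicate 5 alone left out 0.542 and 0.494. Within groups they were 0.169 and 0.228 over the vehicle libraries and 0.982 and 0.945 over the AM6545 libraries. The astrocyte marker mean itself ranged from 7.60 to 7.79 with vehicle and from 7.56 to 7.98 with AM6545 (log2 CPM; two-sided exact permutation test, p = 0.571), and the summed level of the list from 5675 to 6301 and from 4939 to 6982 CPM, with no marker at 0. Its part in the isoform levels was not tested further. Against the excitatory neuron markers, r was 0.326 for kinase-containing and 0.304 for truncated Ntrk2, and 0.415 and 0.558 for Ntrk3. Without vehicle replicate 1 and AM6545 replicate 1, farthest from that list's median, these were 0.698, 0.219, 0.712 and 0.764. In the same order, r against the choroid plexus markers was -0.342, 0.477, -0.306 and -0.373. Without vehicle replicate 4 and AM6545 replicate 4, farthest from that list's median, these were 0.0762, 0.367, 0.0152 and 0.361. With vehicle replicate 4 alone left out they were -0.00348, 0.315, -0.00086 and 0.160, so the negative values rested on that library. Against the oligodendrocyte markers, kinase-containing and truncated Ntrk3 gave 0.246 and 0.432, and -0.0246 and 0.149 with AM6545 replicate 3 alone left out.

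**Figure D5:**
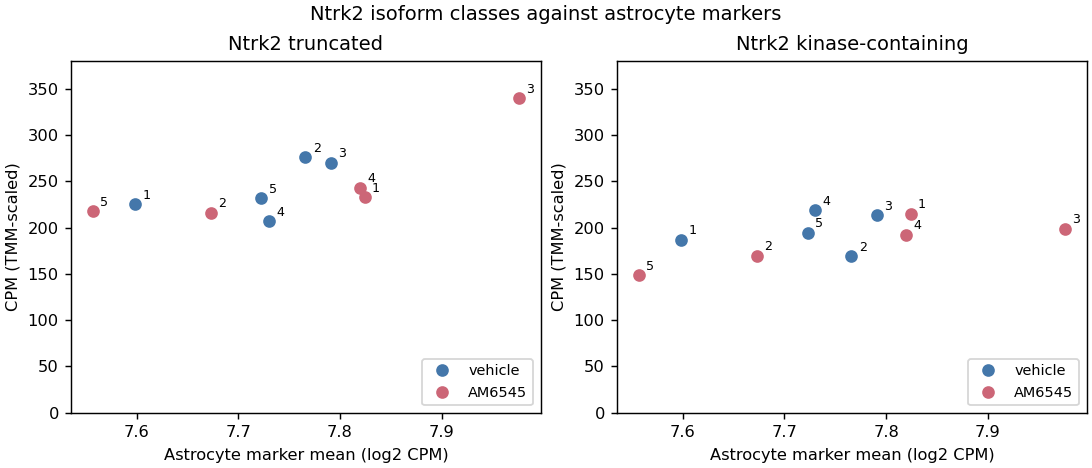
CPM of truncated and of kinase-containing Ntrk2 against the mean log2 CPM of 16 astrocyte markers, 1 point per library, coloured by group. The library with the highest marker mean (7.98), AM6545 replicate 3, also has the highest truncated level, at 340 CPM.

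The genes whose log2 CPM was most like a member's over the 10 libraries were picked by Pearson's r among 14357 others, as a description. They included Plpp3 (r = 0.961) and Fat1 (0.955) for Ntrk2. For Ntrk3 they were Mboat2 (0.976), Cd47 (0.965) and Calr4 (0.962), the last at 0.890 to 2.59 CPM. Those nearest to Sort1 were Disp2 (0.966), the neuronal chloride transporter gene Slc12a5 (0.963) and Ktn1 (0.961). For Ntf3 the values were lower, with Layn (0.920), Usp16 (0.900) and Scd3 (0.894).

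The other genes of the pathway were taken from lists of ligands, receptors, sortilins, Trk adaptors, p75NTR partners, proneurotrophin proteases and trafficking proteins. Of 106 listed gene symbols, all but Ngfrap1 (105) were in the table. Of these, 99 were tested, and 0 passed an adjusted p of 0.05 in edgeR's quasi-likelihood test, against 0% of all genes. At an unadjusted p under 0.05, 1 was higher and 0 lower with AM6545, a share of 1.01% against the 1.88% of all genes. The median log2 fold change of the 99 was 0.02, with 56 above 0, against a median of -0.01 over all tested genes, 48.1% of which were above 0.

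By role, the ligand genes Bdnf and Ntf3 both had a value of -0.14, and the 2 tested receptors, Ntrk2 and Ntrk3, a median of -0.05. The 5 sortilin family genes ran from -0.12 for Sorl1 to 0.10 for Sorcs2. Trk adaptors and signalling genes, 42 of 42 tested, had a median of 0.04, the 19 tested p75NTR partners one of -0.01, the 10 tested processing genes one of 0.05 and the 18 tested trafficking genes one of 0.03. The gene past the unadjusted threshold was Hap1, whose protein, huntingtin-associated protein 1, takes part in the vesicle transport of BDNF and TrkB. Hap1 had 49.2 ± 14.7 CPM with vehicle and 71.8 ± 11.03 with AM6545 (SD, n = 5 each), and 4 of 5 AM6545 libraries lay above all vehicle libraries. Its log2 fold change was 0.55 (SE 0.185, unadjusted p = 0.00989, adjusted p = 0.9998, edgeR's quasi-likelihood test), so it did not pass after adjustment.

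The next smallest unadjusted p-values in that direction were those of the adaptor gene Shc3 (13.1 ± 3.56 CPM with vehicle and 16.1 ± 1.63 with AM6545, log2 fold change 0.29), the phospholipase C gamma gene Plcg1 (22.3 ± 2.52 and 25.1 ± 3.02, 0.17) and Rhoa, a GTPase regulated through p75NTR (201 ± 17.5 and 222 ± 15.9, 0.15). In the other direction stood Bdnf with the gamma-secretase genes Psenen (36.9 ± 7.60 and 33.0 ± 5.11, -0.16) and Psen2 (22.9 ± 3.53 and 20.7 ± 2.98, -0.15). Ntf5, Ngfr, Mmp7 and Sytl1 were among the genes below the low-count filter.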

How the data were processed

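The authors deposited estimated counts per gene and per transcript for 10 libraries, as the fractional values show (38.6% of gene table cells were not whole). The submitters' processing notes name Salmon 1.5.2 and mm10, and libraries were made with a SMARTer low-input kit, per the labels' protocols. Annotation release and strand setting are not given in the sources used here. GENCODE M21 supplied names for 22155 of 22255 genes and lengths for 101527 of 102392 transcripts, matched without version.

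Groups and replicate numbers came from the titles. Estimated counts were rounded and tested in edgeR 4.0.16 (R 4.3.3) with TMM, filterByExpr (minimum count 10, minimum total 15), a group-only design, robust quasi-likelihood dispersions and Benjamini-Hochberg adjustment over the whole table, threshold 0.05, two-sided. For isoform classes, the Ntrk2 and Ntrk3 rows were replaced by sums of their transcripts. CPM were scaled by TMM. Marker means used log2 CPM with a prior count of 2. Shares were compared by exact permutation, and correlations with 100000 resamples (Python 3.11.15, scipy 1.17.1). Scripts were tested on simulated data. There, edgeR's quasi-likelihood test called 22 of 50 genes and 2 of 50 transcripts given a 1.5-fold change. Of those given a 2-fold change it called 42 of 50 genes and 12 of 50 transcripts, so most such transcript changes were missed. Library totals of 18106112 to 25899794 counts set the precision. Estimates that share reads between transcripts carry an error that the standard errors leave out.

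Alternatives were DESeq2 1.42.0 (size factors, Wald test), no low-count filter, the replicate number as a block, other definitions of the truncated share, plain CPM, and each library left out. Members, gene lists and tests were chosen with earlier results of these data known. All members and their tested transcripts are named, with Bdnf, up to 4 pathway genes per direction of smallest unadjusted p, up to 3 genes most like each member and defining markers. A few genes these rules name, and a sequence, are not reported here. No batch or date is given in the labels, so no relation was recomputed within batches.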

Additional observations from a re-analysis of the deposited data

Results flagged for a closer look

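In groups of 5 libraries, 66 checks for a library far from the others gave 6 such values, where chance would give about 3.3. The checks are not independent, since truncated Ntrk2 is a sum that includes Ntrk2-204 and Ntrk2-205. Whether the number found is an excess therefore cannot be told. In AM6545 replicate 3 these were truncated Ntrk2 at 340 CPM, its transcripts Ntrk2-204 at 228 CPM and Ntrk2-205 at 24.7 CPM, each the highest of the AM6545 group, and the red blood cell marker mean at 7.44 on the log2 CPM scale. Ntrk2-201 was lowest of the vehicle group in vehicle replicate 2, at 11.3 CPM. The choroid plexus marker mean was lowest of the vehicle group in vehicle replicate 4, at 1.35 on the log2 CPM scale.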

How the results depend on the processing

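No member gene, transcript or isoform class was called at an adjusted p of 0.05 under DESeq2 size factors, the DESeq2 Wald test, no low-count filter, the replicate block or any left-out library, where the smallest adjusted p was 0.915. Values near 0 changed sign: Sort1 was at -0.000041 with DESeq2 size factors and the Wald test and -0.0037 with the replicate block, and Ntrk2-204 at -0.0053 with size factors and the Wald test, -0.0038 without the filter and -0.010 with the block. Leaving out each library in turn, log2 fold changes ran from -0.102 to 0.0426 for Ntrk2, -0.176 to 0.000101 for Ntrk3, -0.0461 to 0.0824 for Sort1, -0.216 to 0.00587 for Ntrk2-201, -0.0111 to 0.153 for Ntrk2-202, -0.151 to 0.0704 for Ntrk2-204, -0.0776 to 0.197 for Ntrk3-206, -0.0553 to 0.16 for Sort1-201, -0.0900 to 0.0979 for truncated Ntrk2 and -0.176 to 0.00858 for kinase-containing Ntrk3. The Ntrk2 truncated share differed by 0.422 points (without vehicle replicate 4) to 3.55 points (without vehicle replicate 2), and by 1.98 to 2.19 points under other definitions. That of Ntrk3 differed by -0.841 (without AM6545 replicate 5) to 0.813 points (without AM6545 replicate 1) and by -0.427 points as a share of all transcripts. Marker relations past an adjusted p of 0.05 numbered 1 with plain CPM (truncated Ntrk2 with astrocyte markers, r = 0.832, adjusted p = 0.0346) and 0 to 2 with a library left out, 2 without vehicle replicate 4 (truncated Ntrk2, r = 0.817, and truncated Ntrk3, r = 0.843, with astrocyte markers, adjusted p = 0.0452 by permutation for each). The cause of these changes was not tested.

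The labels do not say whether same-numbered libraries were paired. Their deviations from the group means correlated at -0.14, -0.19, 0.23, 0.39 and 0.06. For 3 of 5 vehicle libraries the best match among the AM6545 libraries had the same number. With the replicate block, 0 member genes, 0 transcripts and 0 classes were called, and the sign-flip test of the truncated share gave an exact p of 0.5 for Ntrk2 and 1 for Ntrk3, where the smallest p it allows is 0.0625, so it could not pass 0.05 and says nothing about stability. At these depths Ngfr, with at most 3 counts a library, allows no comparison.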
